A study of Homo sapiens with 6 samples.

Results

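Galactose sites absent from normal glucose are the places at which a GAPDH peak was listed for MOLM-13 cells in galactose and no peak was listed there in normal glucose. MOLM-13 is an established human acute myeloid leukaemia line, and in CLIP-seq, RNA that ultraviolet light has crosslinked to GAPDH is pulled down by an anti-GAPDH antibody and read by sequencing. Cells came from galactose, low glucose or normal glucose, 2 samples each. The authors deposited 1 peak list per condition in which both samples were joined. The lists hold positions and gene names without reads, scores or strands, so the depth is unknown, no spread between replicates can be given, and every test below compares entries of lists and not the media. No other treatment or genotype separated the groups.

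The members were selected on overlap: a galactose peak was taken when it shared no nucleotide with any normal glucose peak. This held for 198 of 337 galactose peaks (58.8%, exact 95% interval 53.3 to 64.1%). The 3 lists together held 1316 entries, with a peak found in several lists counted once in each. The members form 2 subgroups: 87 peaks overlapped a low glucose peak (galactose with low glucose), and 111 overlapped neither other list (galactose alone). Over the whole galactose list 57.0% of peaks met a low glucose peak, and among members this was 43.9%, against 75.5% of the 139 galactose peaks shared with normal glucose. The low glucose list contributed 86 partner peaks, none of which met a normal glucose peak. Absence is a common state in these lists: 72.1% of the 484 low glucose peaks met no normal glucose peak, and 71.7% of the 495 normal glucose peaks met no galactose peak. Since the overlap chose the members, their number is a description and carries no test.

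GAPDH is the glycolytic enzyme that oxidises glyceraldehyde-3-phosphate with NAD+, and it also binds RNA. The region that holds this cofactor has been proposed to take part in RNA binding, but the binding region is not settled. Transfer RNA is among the classical RNA ligands of GAPDH, and AU-rich stretches of messenger RNA are another. Galactose enters glycolysis through a slow side route, so cells fed with it lean on mitochondrial respiration. A mature tRNA carries a CCA tail that an enzyme adds after transcription and that is not written in the human tRNA genes. Messenger RNAs for ribosomal proteins begin with a run of pyrimidines, the 5′ terminal oligopyrimidine tract, through which nutrient supply controls their translation.

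The sequences that set the galactose with low glucose sites apart came from members that lie over no tRNA gene, most of them in introns and long non-coding RNAs. Each line gives a 30-nt stretch of hg38 from within the peak whose position stands beside it, read 5′ to 3′ on the strand that resembles a tRNA, with the exact match to a tRNA gene and its CCA tail in capitals. These lines were chosen after the values were seen, to show matches to tRNAs of different amino acids, with threonine most often. All of them end at the tRNA 3′ end. Matches away from that end, such as those at SDHAF3, VAC14 and GREB1, are not shown.
AZIN2, threonine tRNA (chr1:33120172-33120272): cccggaGAATCCCAGCGGGGCCTCagagat
LRPAP1, threonine tRNA (chr4:3521380-3521481): gaactACTCCCAGCGGGGCCTCCAcatgct
SIL1, threonine tRNA (chr5:139061930-139062031): cactcaCCTCGCTGGGGCCTCCAagctcct
CELF4, threonine tRNA (chr18:37400921-37401023): cagcttgATCCCAGCGGGGCCTgggccctt
SYTL3, isoleucine tRNA (chr6:158730428-158730529): agtgtATCCCCGTACGGGCCACCAttttgt
PPARA, proline tRNA (chr22:46180749-46180850): tctccAATCCCGGACGAGCCCCCAgaaaat
GARS1-DT, arginine tRNA (chr7:30579198-30579299): gcttacCTCCTGGCTGGCTCGCCAatatat

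For comparison, the last 30 bases of the tRNA genes matched by AZIN2, SYTL3 and PPARA are given here on the tRNA strand, with the bases that the member shares in capitals. The genes stop before the tail, and the members carry on with 1 or more of its bases.
TRT-AGT2-1, threonine (chr6:26532917-26532946): agatcctgggttcGAATCCCAGCGGGGCCT
TRI-AAT5-1, isoleucine (chr6:26554166-26554195): aggtcgcgggttcgATCCCCGTACGGGCCA
TRP-AGG1-1, proline (chr16:3192031-3192060): aggtcccgggttcaAATCCCGGACGAGCCC

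Matches of this kind were concentrated in the galactose with low glucose sites. An exact match of 14 nt or more, on either strand, to a nuclear tRNA gene of RefSeq (GRCh38.p14) with CCA appended was found in 23 of the 72 such sites off tRNA genes (31.9%, exact 95% interval 21.4 to 44%). It was found in 6 of 105 galactose alone sites (5.71%), in 2 of 95 galactose peaks shared with normal glucose (2.11%) and in 2 of 438 normal glucose peaks (0.457%). The remaining low glucose peaks held 22 in 345 (6.38%). Of 35116 RefSeq promoter windows as long as a single-site peak, 0.595% held such a match and 0.148% held one at the tRNA 3′ end. The search was devised after the sequences had been read, so these shares carry no test.

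**Figure D1:**
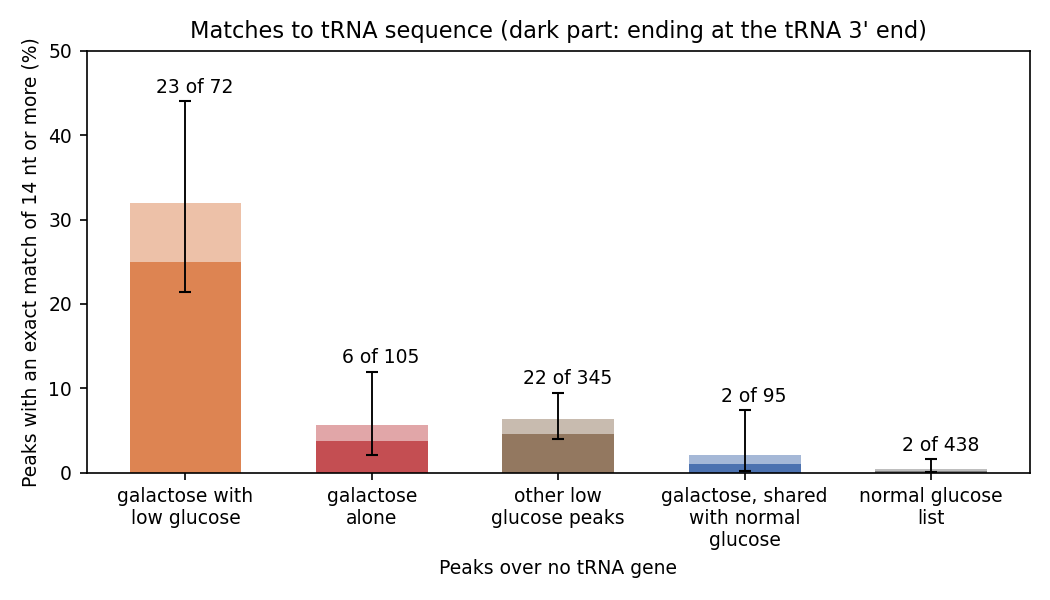
Share of peaks over no tRNA gene that hold an exact match of 14 nt or more to tRNA sequence (percent; bars, whole share; dark part, matches that end at the tRNA 3′ end; error bars, exact 95% intervals; labels, peaks with a match of all peaks). The galactose with low glucose sites stand at 31.9%, against 5.71% in galactose alone and 0.457% in the normal glucose list.

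The matches shared a position within the tRNA and within the peak. In the galactose with low glucose subgroup, 18 of the 23 ended at the tRNA 3′ end, counted as within 3 nt of the last base of the gene or in the tail. The last matched base lay within 4 nt of the middle of the peak in 17 of these 18, which is where the called crosslink site lies. Matches ran into the tail by at least 1 base in 13 peaks and through the whole CCA in 8. The exception to the central position was LINC00623, a long non-coding RNA with a match of 25 nt, whose match ended 46.0 nt from the middle. In galactose alone, all 4 terminal matches ended within 4 nt of the middle.

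Threonine tRNAs accounted for 11 of the 23 matches, among them those at AZIN2, LRPAP1, SIL1, PEMT, CELF4 and CCDC78. Arginine tRNAs took 3, isoleucine and asparagine tRNAs 2 each, and glutamate, glycine, lysine, methionine and proline tRNAs 1 each. The listed genes have no common role. AZIN2 encodes an inhibitor of antizyme in polyamine control, LRPAP1 a chaperone of lipoprotein receptors, SIL1 an exchange factor for an endoplasmic reticulum chaperone, and PPARA a nuclear receptor for fatty acids. The tRNA-like strand was opposite to the listed gene in 16 of the 21 matched sites with a single gene strand, and the lists carry no strand by which to tell which one was crosslinked. Whether reads from mature tRNA were placed at these positions was not tested, since reads are not used here.

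Matches differed in length. The longest, 40 nt, lay in SDHAF3, which encodes an assembly factor of succinate dehydrogenase, and matched a lysine tRNA away from its 3′ end. VAC14, a scaffold of a lipid kinase complex, held 36 nt of a glycine tRNA, and GREB1, a hormone-responsive gene, held 22 nt of a glutamate tRNA. In galactose with low glucose, the shortest were the 14 nt of CCDC78 and the 15 nt of PEMT, CELF4 and LINC02139, all within the same threonine acceptor end. The shortest in galactose alone, 14 nt in LINC01107 and TENM3 and 15 nt in PLPPR5, matched other tRNAs. Among the longer ones there, PADI2, which encodes a deiminase, held 22 nt from the 5′ part of a glutamate tRNA, and ZNF773, a zinc finger gene, held 18 nt that ran through the whole tail of a lysine tRNA.

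Peaks over annotated tRNA genes were read for the same 3′ end. Of the members, 21 overlapped a tRNA gene, 15 in galactose with low glucose and 6 in galactose alone. The authors extended solitary sites by up to 50 nt. Here the first and last crosslink sites of a peak were estimated by taking 50 nt off each side, on the assumption that merged sites were extended likewise. In galactose with low glucose, the stretch between these sites lay at the 3′ end only in 10 of 15 tRNA genes. There the last site lay 3 or 4 nt past the last base, at or just past the place of the CCA tail in a mature tRNA. In galactose alone, the stretch lay at the 3′ end only in 3 of 6, 1 to 4 nt past the last base. Of the galactose peaks shared with normal glucose, 6 of the 42 on tRNA genes with a known strand lay at the 3′ end only, while 28 reached from the 5′ to the 3′ end of the gene, against 1 of 15 in galactose with low glucose and 0 of 6 in galactose alone. In the normal glucose list 11 of 55 lay at the 3′ end only and 33 spanned the gene. The median widths were 102 nt in galactose with low glucose, 102 nt in galactose alone and 176 nt in the shared peaks. A wide peak meets another list more easily than a narrow one, so width is tied to the choice of members and these counts are descriptions.

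**Figure D2:**
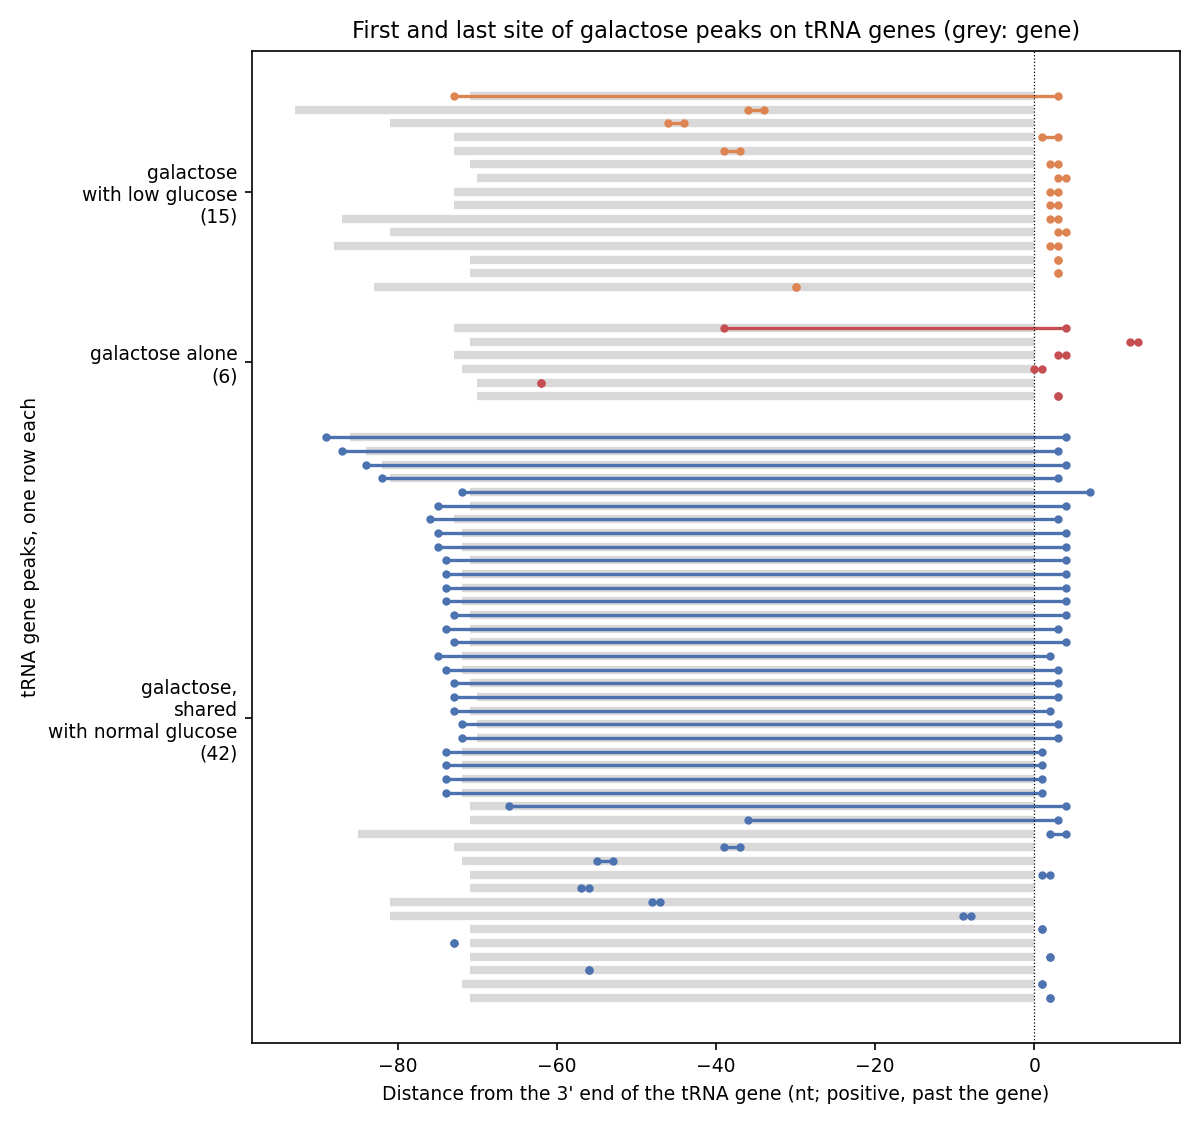
First and last crosslink site, estimated as the peak less 50 nt at each side (points joined by a line), of each galactose peak on a tRNA gene, in nt from the 3′ end of the gene; grey bars are the genes, 1 row per gene. At the 3′ end only lie 10 of 15 galactose with low glucose sites and 3 of 6 galactose alone sites, and 28 of the 42 shared peaks span the gene.

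The tRNA genes among the members served many amino acids. In galactose with low glucose these were cysteine, glycine, asparagine, serine and threonine with 2 genes each, and glutamate, isoleucine, arginine, tyrosine and selenocysteine with 1 each. At TRT-CGT1-1, TRC-GCA3-1, TRS-GCT2-1 and TRN-GTT5-1 the galactose and low glucose peaks had identical ends. TRE-TTC3-1, in CROCC, was the single gene spanned from end to end in galactose, with a peak of 177 nt, whereas its low glucose peak, 1 extended site, covered the 3′ end alone. CROCC, which encodes a protein of the ciliary rootlet, held 3 members, each of them over a tRNA gene inside it. In galactose alone the genes were 2 for glycine and 1 each for glutamate, isoleucine, methionine and asparagine. At TRE-TTC1-2, in an intron of ELF1, the last site lay 13 nt past the gene.

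Protein coding genes held most members. They took 140 of 198 members (70.7%), against 54 of 139 galactose peaks shared with normal glucose (38.8%), an odds ratio of 3.80 (two-sided Fisher's exact test, adjusted p = 1.07e-07 over the 13 features compared). Small nuclear RNAs went the other way, with 1 member (0.505%) against 15 shared peaks (10.8%, exact test, adjusted p = 4.72e-05). Peaks over tRNA genes made up 10.6% of members and 31.7% of shared peaks (exact test, adjusted p = 1.57e-05). On tRNA genes with a known strand, the shared peaks had a median width of 176 nt, against 102 nt in each subgroup. Width is tied to the choice of members, and its part in this call was not tested. In the whole lists, tRNA genes took 14% of low glucose peaks and 11.5% of normal glucose peaks, and protein coding genes took 64% of low glucose peaks and 50.3% of normal glucose peaks. The share of tRNA genes among members thus lay near that of these lists and the share among the peaks shared with normal glucose above it, which was not tested. Other small RNAs, a class of biotypes such as miscellaneous RNA and microRNA, made up 2.02% of members and 10.1% of shared peaks (exact test, adjusted p = 0.00696). A peak over such an entry took this class even where it also lay in a protein coding or long non-coding RNA gene. The call was lost with protein coding genes first in the class order, without recurrent sequence and without single-site peaks that have a G before the middle.

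Other shares did not pass the threshold of 0.05. Long non-coding RNAs held 17.2% of members and 23% of shared peaks (exact test, adjusted p = 0.303), small nucleolar RNAs 7.58% of members and 7.19% of shared peaks (exact test, adjusted p = 1.00), and the 45S ribosomal RNA units 4.04% of members and 5.76% of shared peaks (exact test, adjusted p = 0.714). Coding sequence held 29.5% of the protein coding members and 14.8% of the shared peaks (exact test, adjusted p = 0.0790), and 5′UTRs held 36.7% of protein coding members and 27.8% of such shared peaks (exact test, adjusted p = 0.404). Peaks whose sequence recurs in the genome made up 14.1% of members and 23.7% of shared peaks (exact test, adjusted p = 0.0666). Of the protein coding members, 4 lay in a 3′UTR, the part of messenger RNA in which AU-rich elements are found.

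**Figure D3:**
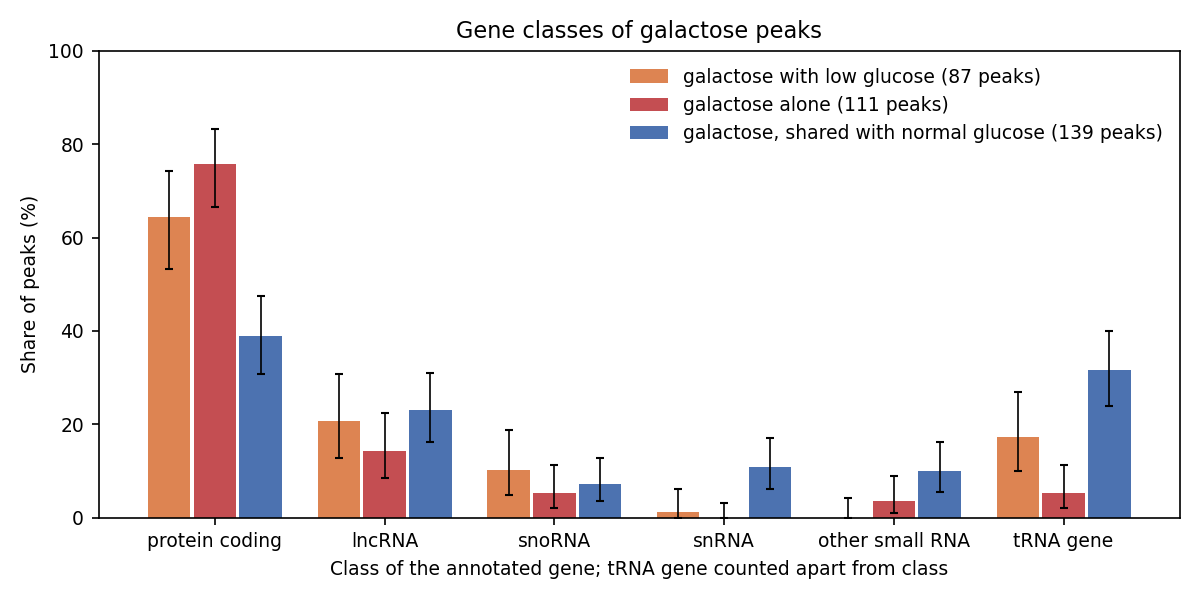
Share of peaks in each gene class (percent; error bars, exact 95% intervals) for the 87 galactose with low glucose sites, the 111 galactose alone sites and the 139 galactose peaks shared with normal glucose. Protein coding genes hold 64.4% of galactose with low glucose sites and 75.7% of galactose alone sites, against 38.8% of shared peaks, and tRNA genes hold 17.2% of galactose with low glucose sites and 5.41% of galactose alone sites, against 31.7% of shared peaks.

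Between the subgroups no share passed the threshold after adjustment. Galactose with low glucose held more introns, with 23 of 56 protein coding sites (41.1%) against 17 of 83 in galactose alone (20.5%, exact test, unadjusted p = 0.0126, adjusted p = 0.0819), and more tRNA genes, with 17.2% against 5.41% (exact test, unadjusted p = 0.00978, adjusted p = 0.0819). Coding sequence held 19.6% in galactose with low glucose and 36.1% in galactose alone (exact test, adjusted p = 0.170). Introns carry many of the tRNA-like stretches described above, which are counted here under the gene listed for the peak. The GC content of the peaks had a median of 57.4% (quartiles 50.2 and 64.4%) in galactose with low glucose, 65.3% (quartiles 53.7 and 73.4%) in galactose alone and 53.9% in the shared peaks.

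The protein coding exon sites lay near the start of the messenger RNA. In galactose with low glucose the 27 sites in 5′UTRs or coding exons had their middle at a median of 25 nt from the nearest annotated RNA 5′ end, measured along exons, and in galactose alone the 65 such sites at a median of 60.0 nt. The 23 shared galactose peaks had a median of 29 nt and the 147 such peaks of the normal glucose list one of 157 nt. Within 100 nt of a 5′ end lay 21 of 27 sites in galactose with low glucose, 47 of 65 in galactose alone and 15 of 23 shared peaks, against 52 of 147 in the normal glucose list. Within 10 nt lay 10 of 27 sites in galactose with low glucose, 11 of 65 in galactose alone and 6 of 23 shared peaks, against 18 of 147 in the normal glucose list. The median of the shared galactose peaks thus lay between those of the subgroups. The distance was not tested because it was noticed in these data.

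**Figure D4:**
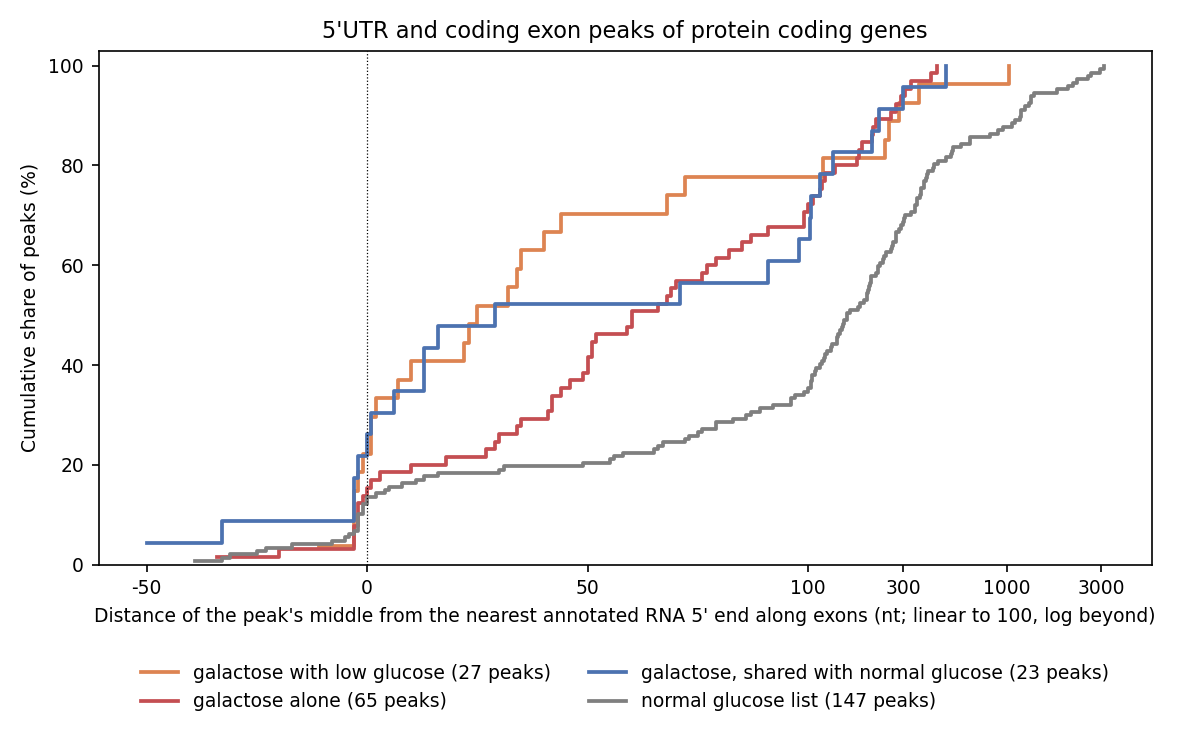
Cumulative share (percent) of 5′UTR and coding exon peaks against the distance of their middle from the nearest annotated RNA 5′ end (nt along exons, linear to 100 and logarithmic beyond). Medians lie at 25 nt in galactose with low glucose, 60.0 nt in galactose alone, 29 nt in shared galactose peaks and 157 nt in the normal glucose list.

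Of the fixed gene lists, that of ribosomal proteins had the most genes at members, 19 among the 231 gene identifiers there. Of these 19, 11 were in galactose with low glucose and 10 in galactose alone. RPS2 and RPS12 had sites in both subgroups. The sites of RPL12 and RPL38 lay in introns, and that of RPL12 fell on the small nucleolar RNA inside it. The whole galactose list held 28 ribosomal protein genes, the low glucose list 35 and the normal glucose list 36. Of all galactose peaks, 58.8% were members. RPS27L, a p53-induced relative of RPS27, had 2 sites in galactose alone, and neither low nor normal glucose had a peak in it.

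Several of these sites had a run of pyrimidines at their middle. The windows below, 30 nt of hg38 on the gene strand around the middle of peaks within 10 nt of a 5′ end, show the longest run of C and T that touches the 11 central bases in capitals. The first 3 belong to galactose with low glucose and the others to galactose alone.
RPL5 (chr1:92832022-92832051): ctgcgcaagggctgtggCCCTTTTCCCacc
RPS19 (chr19:41860237-41860266): ccgggaaaccccgtcgTTCCCTTTCCCCTg
RPS29 (chr14:49586360-49586389): ggccagCTTCTTCCTTTTacctcgttgcac
RPL37A (chr2:216498826-216498855): tgcgcaccgcgTCTCTTCCTTTCTgggctc
RPS23 (chr5:82278342-82278371): cttcctgcggtgCTTCTCTCTTTCgctcag
RPS28 (chr19:8321482-8321511): ccccgaagcacgtgaCTCCTCTCCgccaga

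The middle lay 3 nt before the annotated 5′ end at RPL5, RPS19 and RPL37A, 1 nt before it at RPS23, 1 nt after it at RPS28 and 2 nt after it at RPS29. Only sites whose genes lie on 1 strand were read for sequence. A run of 5 or more C or T touching the 11 central bases, on the gene strand, was found in 7 of 10 sites within 10 nt of a 5′ end in galactose with low glucose and in 6 of 9 in galactose alone. It was found in 1 of 5 such shared galactose peaks, in 5 of 17 in the normal glucose list and at 35.7% of 35116 RefSeq promoters around the RNA start. Sites of this kind without such a run included the ribosomal protein genes RPL35 and RPS27L in galactose alone, as well as YWHAG, which encodes a 14-3-3 adaptor, CALR, which encodes the chaperone calreticulin, and MAT2A, which encodes an S-adenosylmethionine synthetase. The groups are small, and the run was chosen after the windows had been read.

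Translation-related sites went beyond ribosomal proteins. In galactose alone, EIF4EBP2, which encodes a repressor of cap-dependent initiation, held a 187-nt peak whose middle lay 18 nt from the 5′ end, among the widest members, with CIC (196 nt, intron) and AP2A1 (183 nt, 5′UTR). XPOT, which encodes the exporter of tRNA from the nucleus, held a 5′UTR site at 219 nt. BTF3, a factor that binds nascent chains, held a 5′UTR site in galactose with low glucose at 34 nt. EIF4A1 and EIF4G1, which encode initiation factors, were listed because their introns hold the small nucleolar RNAs at which the peaks lay. None of the listed aminoacyl-tRNA synthetase genes had a peak in any list.

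RNA-binding protein genes were found at members in galactose alone and at none in galactose with low glucose. Among them were CIRBP, a cold-inducible protein with a site at the annotated 5′ end, PCBP2, a poly(C)-binding protein with a site 2 nt before it, the helicase DDX3X (46 nt) in coding sequence, and HNRNPU and IGF2BP1 in introns. The fixed list had 7 genes in the galactose list, 6 in the low glucose list and 8 in the normal glucose list. ZFP36L2, a decay factor for AU-rich messenger RNAs, held a 5′UTR site in galactose alone at 278 nt.

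Respiratory genes gave 3 members. ATP5F1D and CYC1, subunits of ATP synthase and of the cytochrome bc1 complex, held 5′UTR sites at 32 and 23 nt in galactose with low glucose, and ATP5F1C held an intronic site in galactose alone. The normal glucose list had 1 gene of this list and the low glucose list 3. SLC25A6, the mitochondrial exchanger of ADP and ATP, held 2 coding sites in galactose alone, both in sequence that the X and Y chromosomes share. No glycolytic gene, no gene of the pentose phosphate pathway and no gene of galactose breakdown was at a member. Of glycolytic genes, the normal glucose list held 6, the low glucose list 2 and the whole galactose list 0, so none could be at a member. The pentose phosphate pathway had 2, 1 and 1 genes in these lists. Galactose breakdown had no gene in any of them. GCSH, the lipoyl carrier protein of the glycine cleavage system, was the single member of the glycine and serine list, at an intronic site in recurrent sequence.

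Histone genes H1-2 and H3-3A held sites in galactose with low glucose and H4C2 in galactose alone, while H3C4 held one in each subgroup. The list had 4 genes at members, 8 in low glucose and 15 in normal glucose. HSPD1, the mitochondrial chaperonin, held a site 3 nt before its 5′ end with identical ends in galactose and low glucose, and another at 60 nt in galactose alone. FTH1, the heavy chain of the iron store ferritin, held a 5′UTR site at 41 nt in galactose alone. GADD45A and SESN1, which respond to stress and p53, held sites at 52 and 117 nt in galactose alone (named after their values were seen), and no gene of the fixed nutrient stress list had a peak in any list. No gene of the myeloid and leukaemia list or of the list for other cell types was at a member, and positions give no expression level by which to check the cell line.

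Small RNA sites were few and mostly nucleolar. Galactose with low glucose held 9 at small nucleolar or Cajal body RNAs, among them SNORD13, SNORA10 in RPS2, SNORA65 in RPL12, SNORA50C, SCARNA12 and 2 neighbouring peaks at SNORA67. Galactose alone held 6, with 2 at SNORA11B and 1 each at SNORD66, SNORA71D, SCARNA2 and SNORA51. SNORA51, in NOP56, held 1 site in each subgroup. TERC, the RNA of telomerase, and 2 sites in NEAT1, the scaffold of paraspeckles, were found in galactose alone, although NEAT1 had 2 low glucose peaks elsewhere. RPL38 was listed through an intronic site. The host transcripts SNHG5, SNHG6 and SNHG25 held sites in galactose alone, and SNHG25 also held that at SNORA50C.

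The 45S ribosomal RNA units held 8 members, 2 in galactose with low glucose and 6 in galactose alone. The gene listed most often, ENSG00000278996, held 6 members, and the same gene had 8 normal glucose peaks at other places. These units are near-identical copies, so a read can be placed at several of them, and all 8 peaks lay in recurrent sequence. Whether a site listed in one copy was listed at another copy in normal glucose was not tested. RNA5SP336, a 5S pseudogene, and RNVU1-29, a variant U1 RNA, each held 1 site in galactose with low glucose.

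Positions in galactose and low glucose agreed closely at tRNA-like sites and less closely at exons. Of the 87 galactose with low glucose sites, 36 had identical start and end in both lists (41.4%), and 57 had middles within 2 nt. The tRNA matches had identical ends in 15 of 23 sites and middles at most 5.00 nt apart. Protein coding exon sites were counted here with 3′UTR sites and without sites on tRNA genes or with tRNA matches. They are thus not the same 27 sites as those measured from RNA 5′ ends. They had identical ends in 4 of 27 and a median distance of 10 nt, up to 89.0 nt. HSPD1, RPS29 and SH2D3A were among those 4. Of the shared galactose peaks met by low glucose, 78 of 105 had identical ends (74.3%).

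**Figure D5:**
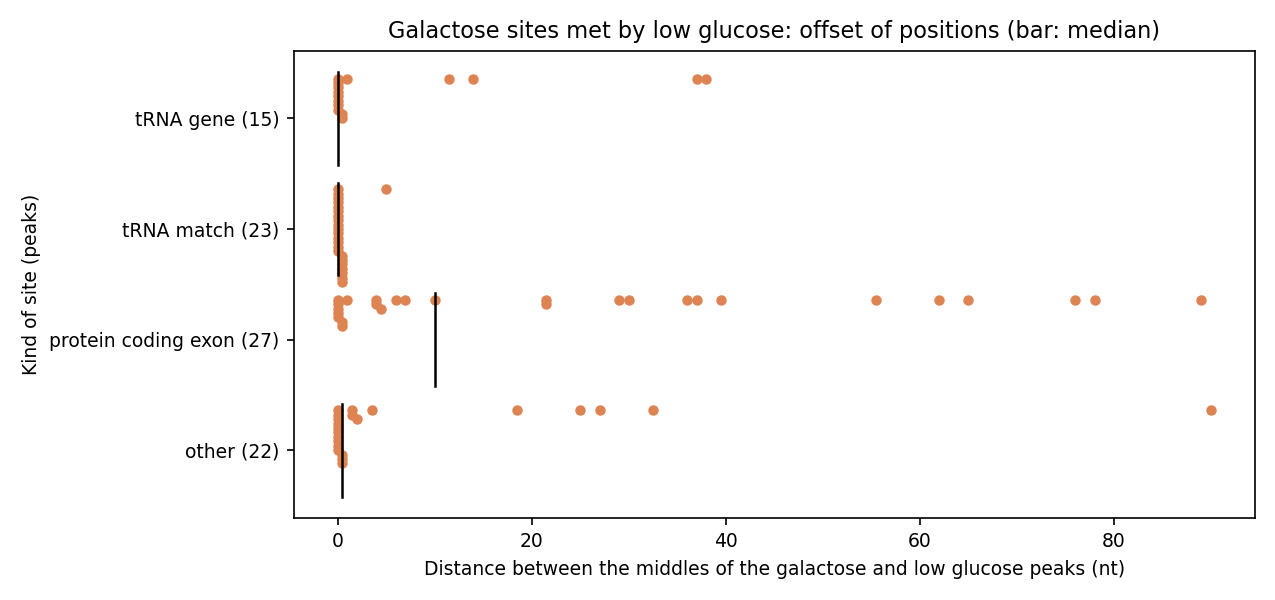
Distance in nt between the middles of the galactose peak and its low glucose partner for the 87 galactose with low glucose sites, by kind of site (points, peaks; vertical bars, medians). The 23 tRNA matches lie within 5.00 nt, and the 27 protein coding exon sites reach 89.0 nt. Exon sites include 3′UTR sites and leave out tRNA gene and tRNA match sites.

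At several messenger RNAs the low glucose peak lay farther into the transcript. The galactose site of CALR was 1 nt from the 5′ end and the middle of the low glucose peak 76.0 nt downstream of it. KDELR1, a receptor that returns proteins to the endoplasmic reticulum, showed a shift of 78.0 nt downstream, SUMO2, a protein modifier, one of 65.0 nt, RPL5 one of 62.0 nt and ATP5F1D one of 55.5 nt. Shifts in the other direction were seen at H3C4 (36 nt) and at TRIM28 (39.5 nt). Since no strand and no depth accompany the positions, the error of a single position is unknown.

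Other places in the same genes were listed in normal glucose for 49 of the 198 members (24.7%), 26 of 87 in galactose with low glucose and 23 of 111 in galactose alone. A count by gene, of galactose peaks whose genes had no normal glucose peak anywhere, gave 149 of 337 (44.2%). The nearest normal glucose peak was a median of 276452 nt away in galactose with low glucose and 1126763 nt in galactose alone, and 32 of 198 members lay within 1000 nt of one. Just inside the threshold, the site of GNAI2 (chromosome 3, 50236334 to 50236434) touched a normal glucose peak without overlap, and EDA, ENSG00000281383, SCARNA2 and SNORA65 lay 22, 40, 60 and 69 nt away. Just outside it, galactose peaks in CCNI, SNORA70, RN7SL767P, RNU4ATAC and RNU6-9 overlapped normal glucose peaks by 10, 17, 23, 27 and 29 nt. CCNI, which encodes cyclin I, also had a member in galactose alone.

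The base before the crosslink site differed as well. RNase T1, used to trim the RNA, cuts after G. Among peaks of a single site with 1 gene strand, a G stood before the middle in 23 of 121 members (19.0%) and in 18 of 48 shared galactose peaks (37.5%, exact test, adjusted p = 0.0428), and the call was lost under 4 of the alternatives tried. It stood there in 6 of 46 galactose with low glucose sites (13%) and in 17 of 75 galactose alone sites (22.7%, exact test, adjusted p = 0.393). The whole normal glucose list had 167 of 266 (62.8%) and the low glucose list 53 of 203 (26.1%). Its part in the absence of members from normal glucose was not tested. Without single-site peaks that have a G before the middle, 175 of 296 galactose peaks met no normal glucose peak (59.1%).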

How the data were processed

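The data were GAPDH CLIP-seq of MOLM-13 cells, 6 samples in 3 conditions. Tools named in the submitters' processing notes are cutadapt and STAR (no versions given), with the build hg38 (GRCh38). Crosslink sites were called by the authors with PureCLIP, nearby sites were merged and solitary ones extended by up to 50 nt. The deposited lists hold positions (chromosome, start, end) with gene identifier and symbol, 1 list per condition with both samples joined, and no counts, so depth and replicate spread are unknown and intervals cover counting error over peaks only. A site below the caller's threshold in 1 condition is missing from its list.

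Peaks were read as 1-based with both ends included and taken to overlap from 1 nt. The members and gene lists were chosen with earlier results of these data known. Strands, biotypes and transcripts came from GENCODE 44, tRNA genes (443) and promoters from RefSeq of GRCh38.p14, sequence from hg38. A peak took 1 class, in the order rRNA, snRNA, snoRNA, other small RNA, protein coding, lncRNA, pseudogene. Its middle took its place in the order CDS, 5'UTR, 3'UTR, intron over all protein coding transcripts, and a middle up to 50 nt beyond a transcript took the place at that end. A peak was recurrent when hg38 repeats over 50% of its 30-mers. Of the tRNA genes, 371 were put on a strand by the B box motif in their last bases and 48 by 12-mers shared with these; 24 were left out of matching. Promoters on 1 chromosome were left out of the tRNA search.

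Shares of 13 features were compared by two-sided Fisher's exact test over peaks (SciPy 1.17.1) with Benjamini-Hochberg adjustment within each of 2 comparisons and a threshold of 0.05. Intervals are exact (Clopper-Pearson, 95%). Widths, distances and positions are descriptions. The statistics were tested on simulated lists. Named were genes with the most members, genes of 19 fixed lists with a member, exon sites with identical ends in both lists, exon sites of galactose alone, small RNAs, tRNA genes by amino acid, the widest members and those nearest the threshold; tRNA matches, RNA starts, C or T runs, position shifts and the genes named for them were added after the values were seen. Alternatives were other overlap rules, joined peaks, genes in place of sites, another class order, canonical transcripts, and lists without recurrent sequence, tRNA genes or peaks with a G before the middle. Some members that the rule would name are not reported here.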

Additional observations from a re-analysis of the deposited data

How the results depend on the processing

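The number of galactose sites absent from normal glucose stayed within 1.5 times its value under each alternative tried, from 149 by gene to 205 when 0.5 of the shorter peak had to be covered. The lower share of sites with a G before the middle (-18.5 percentage points) no longer passed at -12.1 with the 0.5-overlap rule (exact test, adjusted p = 0.189), -15.8 with a 50-nt distance (0.0711), -18.5 without recurrent sequence (0.0801) and -16.6 without tRNA genes (0.0905). The lower share of other small RNAs (-8.05) no longer passed at -4.96 with protein coding genes first (0.0519), -4.84 without recurrent sequence (0.0880) and -4.33 without peaks with a G before the middle (0.163). With protein coding genes first, coding sequence passed at 14.3 (0.0428) and introns at -16.7 points (0.0429), and without tRNA genes recurrent sequence passed at -14.9 (0.00807). The cause was not tested. No other share crossed the threshold. Of shares that did not pass, the sign turned for introns with canonical transcripts (9.54) and, without tRNA genes, for lncRNAs (4.09) and snoRNAs (-2.05). Matches to tRNA sequence of 18 nt or more, chosen after the data were seen, were found in 15 galactose with low glucose sites, 3 galactose alone sites and 2 normal glucose peaks. No paired analysis was possible because both samples of a condition were joined in its list, and for the same reason no sample could be left out. The depth of each list is unknown, so absence from normal glucose means not listed.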
